A study of Miniopterus schreibersii with 14 samples.

Results

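The assembled components comp3938_c0, comp14042_c0 and comp23468_c0 of the bat limb transcriptome were read in every forelimb library and were nearly missing from every hindlimb library. They are 3 of the 64618 components in the deposited table, and were chosen by their scores: present in forelimb, near absent in all 6 hindlimb libraries. The difference between the limbs is therefore a description of the choice and was not tested. Stages, bud parts, tissues and sides within the forelimb were compared, since the choice did not name differences among them. The choice did ask for presence in forelimb, and it was made with earlier results of these data known. These comparisons are therefore not fully independent of it.

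The libraries were made from dissected autopods (the end of the limb, which becomes the hand or foot) of embryos and fetuses of the bent-wing bat Miniopterus schreibersii. At stage S14 the forelimb bud and the hindlimb bud were each cut into an anterior, a middle and a posterior part. At S15-17 the forelimb gave 4 libraries: digit I, digits II-V, interdigital tissue I-II (beside digit I) and interdigital tissue II-V (among the wing digits). The hindlimb gave digits I-V and their interdigital tissue. Metacarpals of digits II-V and metatarsals of digits I-V came from a fetal stage. No treatment, strain or altered allele is named for any group, and all the labels that separate them are limb, part and stage. Each part has 1 library, so different parts of a stage stand in for replicates, and a p-value here sets a difference against the spread from part to part, which holds any difference between embryos or libraries as well. The number of embryos in a library is not stated in the labels.

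In vertebrates the forelimb and the hindlimb are built by largely the same genes, and a small number of transcription factors are known to be active in one pair of limbs and not in the other, such as Tbx5 in the forelimb and Pitx1 and Tbx4 in the hindlimb. In bats, digits II-V lengthen and keep the tissue between them to form the wing membrane, while digit I stays short and free, as do the toes. The deposited table names components by assembly number and pairs none with a gene, and 0 identifiers matched the 22775 genes of the reference list for this species. Whether any of the 3 components belongs to a known limb gene, and whether several are pieces of the same transcript, was therefore not determined here. No sequence of these components was used here.

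Values are scores, the normalized counts that were deposited as whole numbers. The score of 1 read lay between 1.29 and 2.23, and the libraries held 4550754 to 7648427 reads recovered from these steps. Intervals on values and on ratios of single libraries are exact 95% intervals that cover counting error only. They take the deposited scaling of the libraries as given. These are bulk samples, in which fewer cells carrying a transcript and less transcript per cell cannot be told apart.

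The most strongly read of the 3, comp3938_c0, scored 498, 490 and 403 in the anterior, middle and posterior forelimb bud. At S15-17 it scored 404 in digit I, 493 in interdigital tissue I-II, 426 in digits II-V and 330 in interdigital tissue II-V. In fetal metacarpals the score was 144. The anterior, middle and posterior hindlimb bud had 0, 0 and 2, the hindlimb digits 2, the hindlimb interdigital tissue 10 and the metatarsals 3. The lowest forelimb score thus lay far above the highest hindlimb score, and the metacarpals were the lowest of the forelimb libraries by a wide margin.

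For comp14042_c0 the forelimb bud scores were 18, 24 and 27 from anterior to posterior. At S15-17 the scores were 38 in digit I, 75 in interdigital tissue I-II, 61 in digits II-V and 68 in interdigital tissue II-V, and the metacarpals had 81. The single nonzero hindlimb score was a 1 in the interdigital tissue. Every later forelimb library was above every bud library.

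The weakest, comp23468_c0, scored 16, 22 and 18 in the forelimb bud, 32 in digit I, 45 in interdigital tissue I-II, 14 in digits II-V, 31 in interdigital tissue II-V and 14 in metacarpals. It was at 0 in all 6 hindlimb libraries. Its forelimb scores rest on 7 to 31 reads a library, so differences among them carry a wide counting error.

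**Figure D1:**
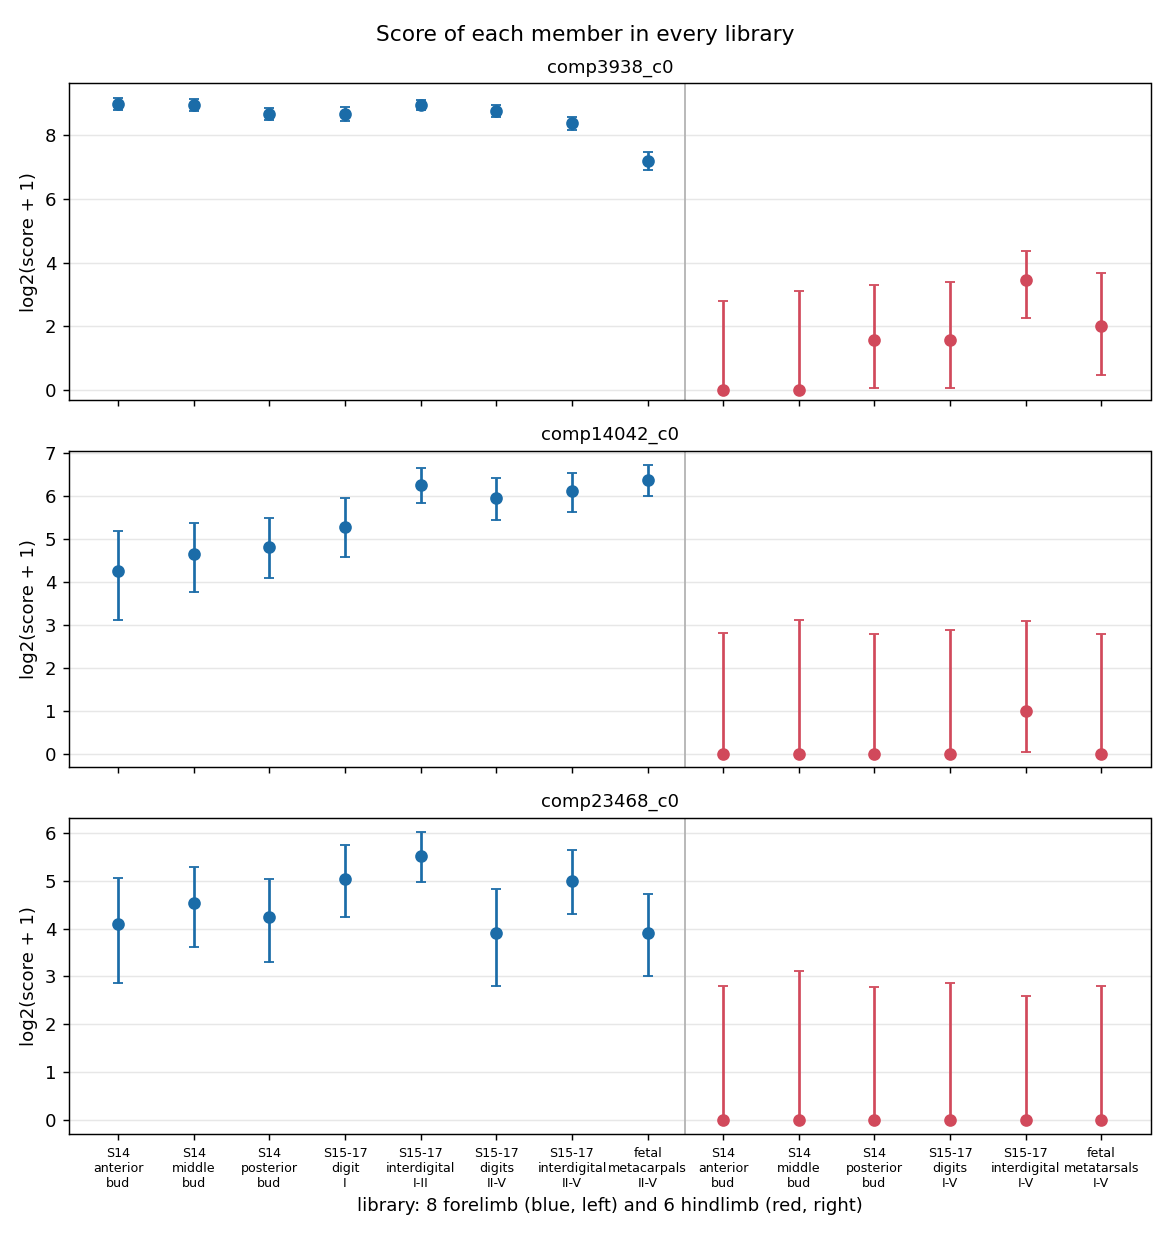
Scores of comp3938_c0, comp14042_c0 and comp23468_c0 on a log2(score + 1) axis in each of the 14 libraries, with 8 forelimb libraries in blue on the left and 6 hindlimb libraries in red on the right. Bars are exact 95% counting intervals; in each panel all blue points lie above all red points, and the lowest blue point of comp3938_c0 is the metacarpals at a score of 144.

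Summed over libraries, comp3938_c0 held 1829 reads in forelimb and 11 in hindlimb, a depth-adjusted ratio of 129 (95% interval 71.7 to 258). For comp14042_c0 the reads were 247 and 1, a ratio of 191 whose interval ran from 33.9 to 7570 because a single read sets the lower side. For comp23468_c0 they were 114 and 0, at least 29.4-fold higher when the hindlimb group is given a floor of 3 reads, while the exact 95% interval of the ratio starts at 23.5. These sums describe how sharply the chosen components parted the limbs, and the smaller read numbers leave the sharpness of comp14042_c0 and comp23468_c0 far less certain than that of comp3938_c0.

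The few hindlimb reads of comp3938_c0 were not spread evenly over the parts. The hindlimb interdigital library held 7 of the 11, with 2 in metatarsals and 1 each in the posterior bud and the digits. Against the matched forelimb part, the depth-adjusted hindlimb reads came to 2.88% (95% interval 1.14 to 6.05) in interdigital tissue, 2.23% (0.267 to 8.24) in metapodials, 0.402% (0.0101 to 2.26) in digits and 0.397% (0.0100 to 2.23) in the posterior bud. The anterior and middle hindlimb bud had 0 reads, with upper limits of 1.22% and 1.58%. Without the hindlimb interdigital library the pooled ratio was 282 (110 to 1038), so that this 1 library sets more of the hindlimb signal than the other 5 together. The single hindlimb read of comp14042_c0 fell in the same library. The source of these hindlimb reads was not tested.

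Few other components parted the limbs in this way. Of the 20429 components kept, whose scores average 10 or more, 7 had every forelimb score above every hindlimb score, which is 0.0343%. The 3 components described here are among these 7 by their choice, and the share is background to it. In the opposite direction 9 components (0.0441%) had every hindlimb score above every forelimb score. The count of 7 became 4 when recovered reads were divided by the library total, and 14 when the hindlimb interdigital library was left out, each with all 3 chosen components among them. Leaving out a library cannot undo a separation, so in that alternative the place of the 3 was fixed in advance. All 3 passed the filter on the strength of their forelimb scores alone.

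Between the 3 and the other 4 there was a wide gap. The mean hindlimb score was 0%, 0.340% and 0.711% of the mean forelimb score in comp23468_c0, comp14042_c0 and comp3938_c0, and 49.1% to 86.6% in the other 4. Ranked by this percentage alone, without asking for separation in every library, the 3 were the lowest of all kept components. The component ranked next, at 2.12%, was of another kind, with a forelimb score of 189 in a single library and 0 in the other 7. Both the gap and the rank restate the choice of components with almost no hindlimb score. They also depend on the filter: below it, 4 components with separated limbs were at 0 in every hindlimb library.

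Below the filter, 7 further components had every forelimb score above every hindlimb score, and 6 of them had no hindlimb score over 1. Their mean forelimb scores were only 2.88 to 12.3, against 24.0 for comp23468_c0, the weakest of the chosen 3. The strongest, comp35536_c0, scored 13, 4 and 8 in the forelimb bud, 9 in digit I, 26 in interdigital tissue I-II, 16 in digits II-V, 17 in interdigital tissue II-V and 5 in metacarpals, with 0 in all hindlimb libraries. The next, comp39239_c0, scored 2, 4 and 8 in the bud, 6, 14, 12 and 17 at S15-17 and 5 in metacarpals, also with 0 in all hindlimb libraries. These were singled out after their values were seen. All 6 had a higher mean score at S15-17 than at S14, as had 60.1% of the 4502 components below the filter that were read in every forelimb library. Of the chosen 3, 2 had a higher mean at S15-17. The 6 hold fewer reads than the chosen 3, and at these scores a single read is a large part of a value. The filter averages over all 14 libraries, so comp35536_c0, with a forelimb mean of 12.3, fell below it through its hindlimb scores of 0.

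Within the forelimb, the step from S14 to S15-17 moved the 3 components differently. Component comp14042_c0 rose, from a mean score of 23.0 ± 4.58 (SD, n = 3) in the bud to 60.5 ± 16.1 (SD, n = 4), and the groups did not overlap. For comp3938_c0 the means were 464 ± 52.7 and 413 ± 67.2, and for comp23468_c0 18.7 ± 3.06 and 30.5 ± 12.7, each with overlapping groups.

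In limma across all kept components, comp14042_c0 differed by 1.33 on the log2(score + 1) scale (SE 0.30, adjusted p = 0.015). In the same fit comp3938_c0 differed by -0.17 (95% interval -0.53 to 0.18, adjusted p = 0.42) and comp23468_c0 by 0.58 (-0.33 to 1.5, adjusted p = 0.31). For comp3938_c0 the interval leaves out a 2-fold change in either direction, while for comp23468_c0 it still holds a 2-fold higher score at S15-17. At this step 26.9% of kept components were called, 12.2% as higher and 14.7% as lower, so that 1 call among 3 is no more than the table at large gives, and 13.3% of components had a smaller p than comp14042_c0. A complete separation of the stages with S15-17 above S14, as in comp14042_c0, was found in 15.4% of kept components. The exact two-sided permutation test over libraries gave p = 0.057 for comp14042_c0, the smallest that 4 against 3 allows, p = 0.23 for comp23468_c0 and p = 0.46 for comp3938_c0.

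The call of comp14042_c0 ended when the anterior bud, its lowest library, was left out (1.17, limma adjusted p = 0.052), and when the stage was represented by the wing parts alone (1.46, limma adjusted p = 0.053). Over all alternatives its adjusted p in limma ran from 0.0072 to 0.053, and the difference stayed positive in each. The parts dissected differ between S14 and S15-17, so stage and dissection cannot be told apart.

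Along the bud, comp3938_c0 had a lower deposited score in the posterior part than in the others. The middle part was 1.21 times the posterior (95% interval 1.02 to 1.45) and the anterior 1.23 times (1.03 to 1.48), while middle and anterior differed by less than counting error, at a ratio of 0.984 (0.821 to 1.18). These ratios of comp3938_c0 rest on the deposited scaling. With reads divided by the library total, the posterior part was still the lowest, at 251 of 6427200 reads. The anterior part had 223 of 4951055 and the middle part 268 of 5727942. Both gaps to the posterior part were smaller on that scaling, and whether they exceed counting error there was not tested. The scores of comp14042_c0 were instead highest in the posterior part, at 1.53 times the anterior. On 17 and 8 reads the interval of this ratio was 0.626 to 4.10. In comp23468_c0 the middle part was 1.40 times the anterior (0.509 to 4.21) and 1.24 times the posterior (0.501 to 3.10). None of the 3 components reached 2-fold between any 2 bud parts, against 22.3% of kept components that did so in at least 1 of the 3 pairings. Each bud part is 1 library, so these ratios have no replicate check and compare libraries only.

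Digit and interdigital tissue were compared on the thumb side (digit I and interdigital tissue I-II) and in the wing (digits II-V and interdigital tissue II-V). For comp3938_c0 the direction was opposite on the 2 sides: interdigital tissue was 1.22 times the digit on the thumb side (95% interval 1.02 to 1.47) and 0.775 times in the wing (0.640 to 0.938). In comp14042_c0 the ratio was 1.95 (1.12 to 3.55) on the thumb side and 1.11 (0.691 to 1.8) in the wing. In comp23468_c0 it was 1.40 (0.732 to 2.79) and 2.26 (0.943 to 5.95). Both weaker components thus had the higher score in interdigital tissue on each side, though only 1 of these 4 ratios lay beyond counting error.

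In limma, with period and side in the model, the difference of interdigital tissue from digit was -0.04 in comp3938_c0 (95% interval -0.53 to 0.45, adjusted p = 0.97). It was 0.56 in comp14042_c0 (-0.36 to 1.47, adjusted p = 0.76) and 0.79 in comp23468_c0 (-0.16 to 1.73, adjusted p = 0.72). None of the 3 was called, and none of the 20429 kept components was (0%), with 1428 at an unadjusted p under 0.05. The opposite directions of comp3938_c0 were tested as a difference between the sides, a test added after seeing them: wing minus thumb side was -0.65 (95% interval -1.57 to 0.26, limma adjusted p = 1), where 0.162% of components were called, a share that alternatives moved widely. The spread in that fit came from the 3 bud libraries alone. Its adjusted p over 7 alternatives was 0.65 to 1.

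Thumb side and wing were set against each other in the same 4 libraries. Digits II-V and digit I had nearly the same score of comp3938_c0, at a ratio of 1.06 (95% interval 0.869 to 1.28), whereas interdigital tissue I-II was 1.49 times interdigital tissue II-V (1.25 to 1.78). The thumb side was higher in both tissues for comp23468_c0, by 2.30 times in digits (0.917 to 6.27) and 1.43 times in interdigital tissue (0.781 to 2.67). For comp14042_c0 digits II-V were 1.58 times digit I (0.873 to 2.97), and the interdigital tissues had a ratio of 0.901 (0.584 to 1.38), wing to thumb side. The wing and the thumb side thus both carried all 3 components, at scores within 2.30 times of each other.

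In limma, with period and tissue in the model, wing minus thumb side was -0.25 for comp3938_c0 (95% interval -0.74 to 0.24, adjusted p = 0.88) and 0.26 for comp14042_c0 (-0.65 to 1.18, adjusted p = 0.95). For comp23468_c0 it was -0.83 (-1.78 to 0.12, adjusted p = 0.79), with an unadjusted p of 0.076. None of the 3 and none of the kept components was called (0%), and 1358 had an unadjusted p under 0.05. These intervals still hold differences of 1.5-fold in comp3938_c0 and over 2-fold in the others. As for tissue, the spread behind them came mostly from the bud libraries.

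**Figure D2:**
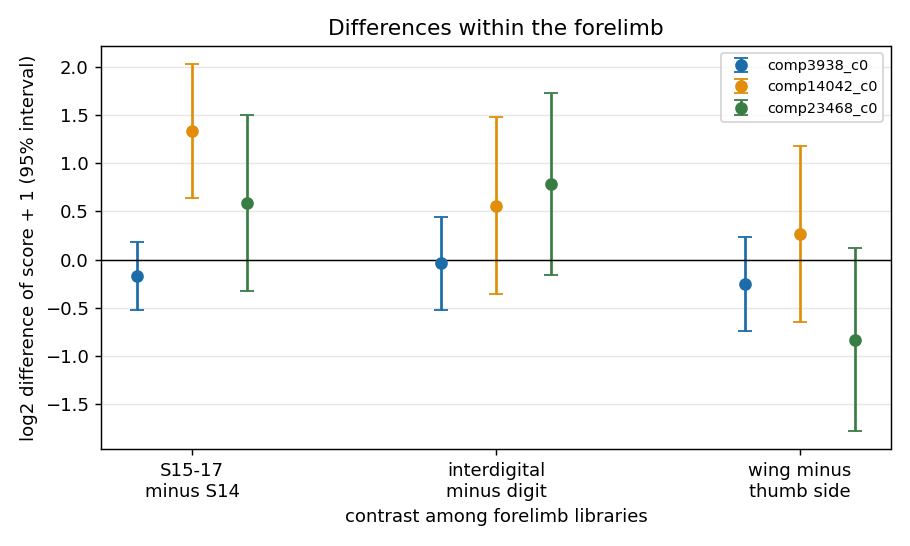
Differences of log2(score + 1) with 95% intervals from limma for comp3938_c0, comp14042_c0 and comp23468_c0 in 3 contrasts among the 7 forelimb libraries of S14 and S15-17. The stage step of comp14042_c0, at 1.33, is the one interval that leaves out 0.

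In the fetal metacarpals comp3938_c0 was lower than in digits II-V, with digits 2.95 times the metacarpals (95% interval 2.35 to 3.73), and also lower than in any bud part. By contrast comp14042_c0 had its highest score in metacarpals, 1.33 times that of digits II-V (0.869 to 2.08), which is within counting error. The 2 libraries had equal scores of comp23468_c0 (ratio 1.02, 0.373 to 2.92). A score over 2-fold lower in metacarpals than in digits II-V was found in 23.3% of kept components and over 2-fold higher in 19.1%, so the lower score of comp3938_c0 is one shared by many components. This is 1 library against 1, with no replicate check.

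Ordered by score, comp3938_c0 ran from anterior bud, interdigital tissue I-II, middle bud, digits II-V, digit I and posterior bud to interdigital tissue II-V and metacarpals. Neighbours in this order differed by less than counting error, with 2 exceptions on the deposited scaling. One was posterior bud over interdigital tissue II-V (ratio 1.22, 95% interval 1.01 to 1.48). The other was interdigital tissue II-V over metacarpals (2.29, 1.81 to 2.91). With reads divided by the library total, posterior bud and interdigital tissue II-V lay closer, at 251 of 6427200 and 200 of 5563074 reads. Whether they differ beyond counting error on that scaling was not tested. For comp14042_c0 the order was metacarpals, interdigital tissue I-II and then II-V, digits II-V, digit I, posterior, middle and anterior bud, and no pair of neighbours differed beyond counting error. The same held for comp23468_c0, which ran from interdigital tissue I-II, digit I, interdigital tissue II-V, middle, posterior and anterior bud to digits II-V and metacarpals. Sorting by score makes neighbours the closest pairs, so small steps between them do not mean that a component was even. The ends of the order of comp14042_c0 had separate counting intervals, 62.4 to 104 in metacarpals and 7.71 to 35.2 in the anterior bud.

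The balance between comp14042_c0 and comp3938_c0 shifted between the periods sampled. Among the reads of these 2 components, comp14042_c0 took 3.46% (8 of 231 reads, exact 95% interval 1.51 to 6.71), 4.63% (2.49 to 7.78) and 6.34% (3.74 to 9.96) in the anterior, middle and posterior bud. At S15-17 its share was 8.70% (5.24 to 13.4) in digit I, 13.2% (10.04 to 17.0) in interdigital tissue I-II, 12.5% (8.86 to 17.0) in digits II-V and 17.0% (12.5 to 22.4) in interdigital tissue II-V. In metacarpals it was 36.0% (63 of 175 reads, 28.9 to 43.6). The mean share was 4.81% ± 1.45 (SD, n = 3) at S14 and 12.9% ± 3.41 (SD, n = 4) at S15-17, without overlap, and the metacarpals lay above every earlier library. The non-overlap is not a result apart from comp14042_c0, whose own scores part these stages, as in 15.4% of kept components. Shares in other pairs of components were not computed, so how common such a shift is was not tested.

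A share of reads depends on the lengths of the components, which the table does not give, so neither its size nor the size of its change gives numbers of molecules. The direction of its change between libraries does not depend on them, nor on the scaling of libraries. Up to S15-17 the shift went with the rise of comp14042_c0, and in the metacarpals with the lower score of comp3938_c0. In the hindlimb interdigital library 1 of 8 reads of this pair was from comp14042_c0, 12.5% with an interval of 0.316 to 52.7. This interval spans the shares of every forelimb library, the metacarpals included.

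**Figure D3:**
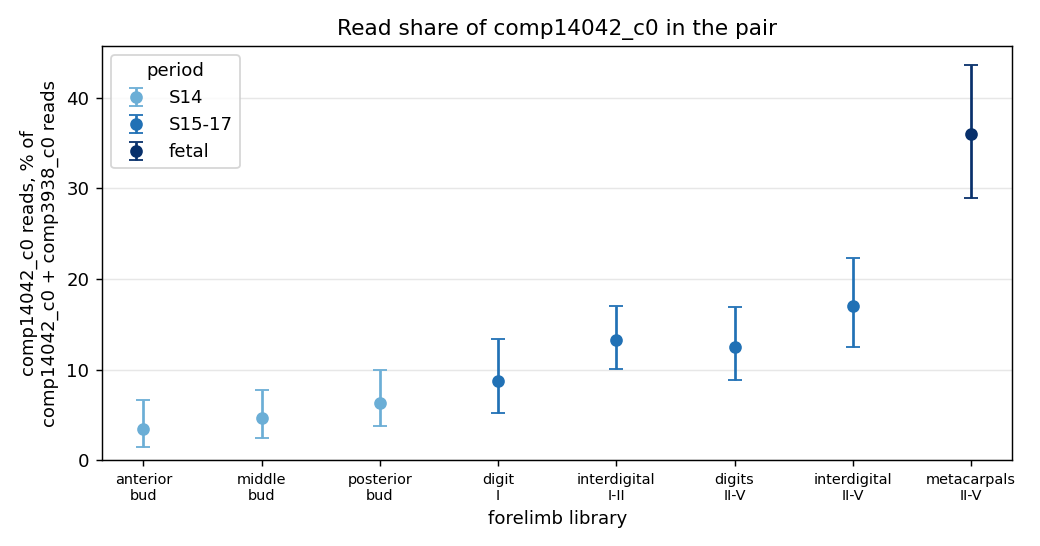
Reads of comp14042_c0 as a percentage of the reads of comp14042_c0 and comp3938_c0 together in each of the 8 forelimb libraries, coloured by period, with exact 95% binomial intervals. The 3 bud libraries lie at 3.46% to 6.34%, the 4 libraries of S15-17 at 8.70% to 17.0% and the metacarpals at 36.0%.

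The share of comp23468_c0 beside comp3938_c0 was 3.04% to 4.29% at S14, 3.16% to 8.68% at S15-17 and 8.94% (exact 95% interval 4.55 to 15.4) in metacarpals, with digits II-V, at 3.16%, inside the bud range. Beside comp14042_c0 it was 39.3% to 48.0% at S14, 18.6% to 45.5% at S15-17 and 14.9% (7.66 to 25.0) in metacarpals. The relation of comp23468_c0 to the others is thus less clear, on 7 to 31 reads a library.

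Across the 8 forelimb libraries the log2 scores of comp3938_c0 and comp14042_c0 had a Pearson r of -0.55 and a Spearman rho of -0.55. For comp3938_c0 with comp23468_c0 these were 0.36 and 0.22, and for comp14042_c0 with comp23468_c0 0.25 and 0.06. The points are different parts and stages, the libraries share their depth across components, and the metacarpals weigh on each value, so these are descriptions only.

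Among the other 20426 kept components the highest Pearson r with the mean centred log2 score of the 3 over all 14 libraries was 0.833. The most alike were comp23028_c0 (r = 0.833) and comp21895_c0 (r = 0.83), which scored 17 to 33 and 13 to 25 in forelimb and 13 to 18 and 8 to 15 in hindlimb. Both are thus well read in hindlimb and overlap between limbs. Over the 8 forelimb libraries alone, comp15104_c0 (r = 0.996) and comp9545_c0 (r = 0.987) were the most like comp3938_c0. Component comp9545_c0 scored 453 to 638 in the forelimb before the fetal stage and 229 in metacarpals, and in hindlimb 504 to 599 before the fetal stage and 280 in metatarsals. Component comp15104_c0 scored 7 to 16 in earlier forelimb libraries and 0 in metacarpals, and in hindlimb 5 to 25 before the fetal stage and 0 in metatarsals. Both were thus lower in metacarpals than in all earlier forelimb libraries, as was comp3938_c0, so that this 1 library weighs on both r values. Both were present in hindlimb before the fetal stage.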

How the data were processed

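Messenger RNA libraries of 14 dissected limb parts were sequenced. TruSeq kits were used on DNase-treated total RNA, per the labels' protocols. The submitters' processing notes list the tools CASAVA 1.8, RSEM and edgeR, with no role given. The assembly method is not given in the sources read. The authors deposited a score per component and library, normalized counts rounded to whole numbers. The score of 1 read was fitted as the largest step whose rounded multiples (tolerance under 0.5) include every score up to 2000, and 99.981% to 100% of all nonzero scores matched.

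Tests were run in R 4.3.3 with limma 3.58.1 on log2(score + 1), using its mean-variance trend, over the 20429 components averaging 10 or more (98.95% of all scores), with Benjamini-Hochberg adjustment, two-sided, and calls at an adjusted p under 0.05. Only the 7 forelimb libraries of S14 and S15-17 entered the fits. The fits were tried on simulated data with equivalent replicates, which does not cover the use of different parts as replicates. Fold changes on this scale understate low components. Each library was left out in turn, and other choices tried were voom on recovered reads, robust shrinkage, library scaling by upper quartile or median, pseudocounts of 0.25 and 5, no filter, and other library sets. Intervals, permutation tests and plots came from scipy 1.17.1, numpy 2.4.6, matplotlib 3.10.9 and pandas 2.3.3 in Python 3.11.15.

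The members and comparisons were chosen with earlier results of these data known. Besides the 3 members, the components named are the 2 most alike over 14 libraries and the 2 most alike over the forelimb, and comp35536_c0 and comp39239_c0, chosen after their values were seen. Sequences and gene names were not used here.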

Additional observations from a re-analysis of the deposited data

How the results depend on the processing

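Of the values of the 3 components in the 3 forelimb contrasts, none passed the threshold under an alternative where it had not before, and the stage call of comp14042_c0 was lost in 2 of 15 alternatives, without the anterior bud and with the wing parts alone. The stage step called 5493 components; the count was 3649 with no filter, 1485 with the wing parts alone and 3092 to 5439 without 1 library, with 3281, 3092 and 3495 without the anterior bud, the posterior bud and interdigital tissue I-II. With upper-quartile scaling its split was 2971 higher and 2303 lower, and with median-centred libraries 2197 and 3998, against 2487 and 3006. The median stage difference of all kept components was 0.07 and -0.11 under these scalings, against -0.02, and comp14042_c0 remained called at 1.43 and 1.24. Between interdigital tissue and digit the count of 0 became 354 with no filter, 1 with robust shrinkage, 1 with voom and 0 to 57 without 1 library, being 25 to 57 when that library was one of the 4 of S15-17. Between wing and thumb side it became 503 with no filter, 1 with robust shrinkage, 2 with median-centred libraries and 0 to 37 without 1 library, 37 without digit I and 24 without digits II-V. None of these calls was one of the 3 components, and the cause of these counts was not tested. The tissue difference of comp3938_c0 changed sign with upper-quartile scaling, to 0.0081, and ran from -0.37 to 0.29 without 1 library. Its side difference ran from -0.58 to 0.076 and that of comp14042_c0 from -0.14 to 0.67. Leaving out 1 of the 4 libraries of S15-17 leaves the tissue contrast on 1 side only and the side contrast in 1 tissue only. Components without overlap between limbs numbered 14 with no filter, 4 with recovered reads divided by the library total, and 14 without the hindlimb interdigital library, an alternative chosen after seeing the data, against 7. For the difference between sides in the tissue contrast, the count of 33 became 7092 without the filter, 79 at the smaller pseudocount, and 0 at the larger one, with centring on medians, with robust shrinkage or with voom. The labels give no replicate numbers, so no block on them was fitted. Depth limits comp14042_c0 and comp23468_c0 most, at 8 to 63 and 7 to 31 reads a forelimb library.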
